A study of Mus musculus with 12 samples.

Results

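The 7 genes examined here, Gabra2, Gabra3, Gabra4, Gabra5, Gabrb1, Gabrb2 and Gabrd, encode 4 alpha, 2 beta and the delta subunit of the GABA-A receptor. They were taken by symbol from the deposited files, which list 24452 gene symbols (35840 RefSeq transcripts), and each of the 7 symbols has a single transcript there. All 7 passed the filter on low counts, as did 14739 symbols in all. The study asked how ethanol exposure and the absence of p53 alter gene expression in somatosensory cortex of the neonatal mouse. RNA was collected on postnatal day 7, 8 h after the last of 2 intraperitoneal injections, from male C57BL/6 pups according to the labels. Stranded RNA-Seq was performed on 12 libraries, 3 in each of 4 groups. WT saline and WT ethanol are wildtype mice given saline or ethanol, and KO saline and KO ethanol are p53 KO mice given the same treatments. The KO mice carry the Trp53 tm1Tyj allele in all tissues and, like the WT mice, were offspring of heterozygous parents. No other allele or agent is named for any group. The 3 libraries of a group are listed as separate samples, and the p-values below measure the spread between such libraries.

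GABA-A receptors are chloride channels built from alpha and beta subunits and a gamma or delta subunit around a pore, and they mediate fast inhibition by the transmitter GABA. The alpha subunit sets the affinity for GABA, the kinetics and much of the pharmacology, the beta subunit is needed for assembly and GABA binding, and the delta subunit replaces gamma in receptors outside synapses that carry tonic inhibition. In neonatal cortex the makeup of the channel is in transition, and Gabra2, Gabra3 and Gabra5 are typical of immature neurons. Ethanol is known to enhance GABA-A receptor function.

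The total estimated count was between 0.72 and 17.1 M in a library (median 10.6 M). The shallowest were WT saline replicate 1 and KO ethanol replicate 1, the 2 libraries whose names begin with L rather than P. The study's methods describe laser microdissection and a hole-punch method, and which was used for which library is not given in the sources used here. WT ethanol replicates 1 and 2 went against the sex on their labels. Their Xist level, the RNA made from the inactive X chromosome of females, was 870 and 1760 CPM (counts scaled to a common library total), against 0.0 to 2.13 in the other 10 libraries, and Ddx3y, on the Y chromosome, was at 0.0 in both and at 25.2 to 148 elsewhere. WT ethanol replicate 1 also had 471 CPM of the thalamic transcription factor Tcf7l2 (1.03 to 29.2 in the other libraries). Among the 7 neuronal and 7 cortical projection neuron markers examined, 0 were absent from any group. Their levels differed, however. The summed projection neuron markers ranged from 858 to 1300 CPM in WT saline, 383 to 1120 in WT ethanol, 957 to 1170 in KO saline and 796 to 886 in KO ethanol libraries. In WT ethanol versus WT saline their median log2 fold change was −0.67, with 0 of the 7 at an unadjusted p under 0.05 in edgeR. The part of this in the results below was not tested. Results are given with and without these 4 libraries where they rest on them. CPM here is the deposited estimated count of a gene divided by the library's TMM-scaled total.

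The targeted gene itself could not check the genotype. Trp53 was measured at 26.2, 3.67 and 14.4 CPM in WT saline and 14.8, 20.0 and 7.22 in WT ethanol libraries. The corresponding values were 11.7, 11.1 and 27.6 CPM for KO saline and 23.4, 28.1 and 28.7 for KO ethanol. The WT and KO ranges overlap. The allele removes the 5′ part of the coding sequence, so that reads from the remaining exons still count towards the gene sum, and the sum checks nothing about the label.

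Per transcript length, Gabra5 was the most abundant of the 7 genes. Levels between genes are compared on the deposited RPKM scale, reads per kilobase of transcript scaled to the library's depth. Gabra5, which marks receptors largely outside synapses, had a mean of 76.8 ± 26.8 RPKM (SD over 12 libraries) and ranged from 48.2 to 145. Gabra3 had 35.9 ± 11.9 RPKM, Gabrb2 23.0 ± 9.28, Gabra4 13.8 ± 4.85 and Gabrd 10.5 ± 5.36. The lowest members were Gabrb1 with 5.28 ± 5.46 and Gabra2 with 3.41 ± 2.41 RPKM. The transcript models counted for Gabrb1 and Gabra2 stop 11793 and 3460 bases short of the annotated 3′ end, unlike those of the other members. The part of this in their low RPKM was not tested. Neighbours in this order of the 7 overlapped in range throughout, whereas the ends were apart. The lowest Gabra5 value exceeded the highest values of Gabrb2 (39.5), Gabrb1 (21.7), Gabra4 (20.6), Gabrd (20.5) and Gabra2 (9.38).

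**Figure D1:**
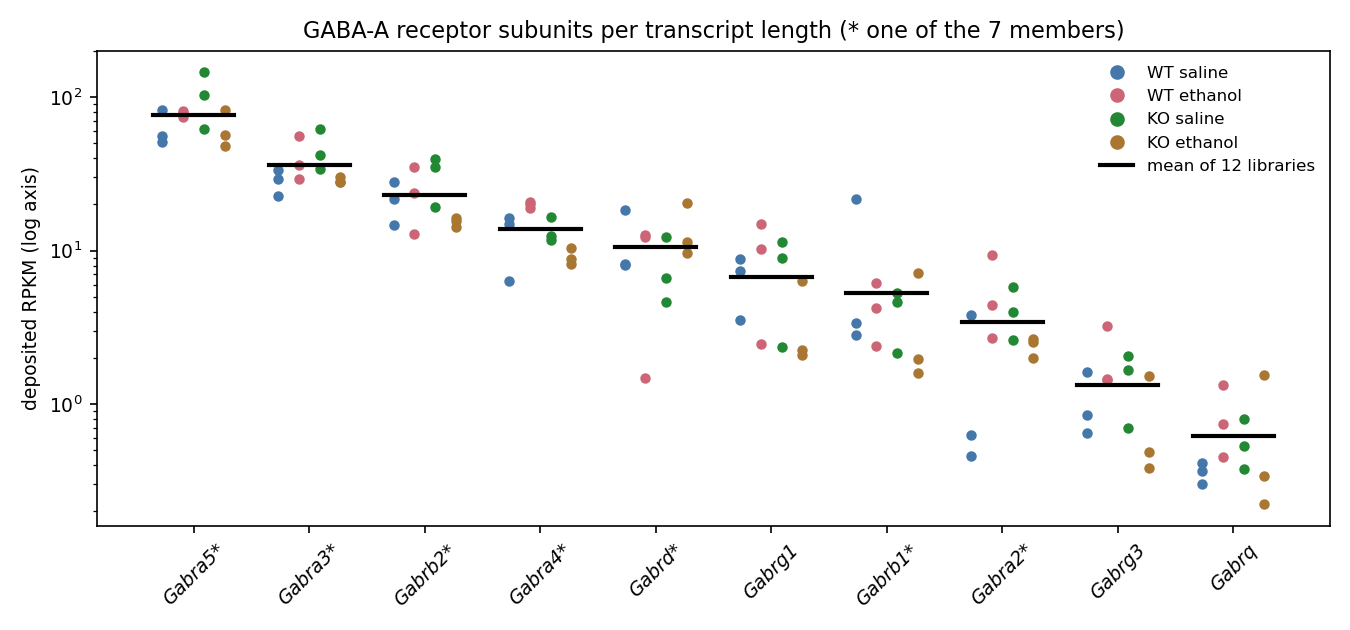
Deposited RPKM (log axis) of 10 GABA-A receptor subunit genes above a trace, ordered by the mean of 12 libraries (black line); each point is 1 library, coloured by group, and an asterisk marks the 7 genes examined. Gabra5 leads with a mean of 76.8 RPKM, Gabra2 stands near the end with 3.41, and neighbouring genes overlap.

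Among the 4 alpha subunit genes examined, Gabra5 supplied 58.7 ± 6.2% of their summed RPKM (SD over 12 libraries), Gabra3 27.8 ± 4.49%, Gabra4 10.9 ± 3.58% and Gabra2 2.53 ± 1.58%. The Gabra2 share comes from the counted model that is short at its 3′ end. The Gabra5 share of these 4 was 59.2 ± 10.7% under WT saline, 54.5 ± 3.77% under WT ethanol, 61.1 ± 4.19% under KO saline and 60.2 ± 5.19% under KO ethanol (SD, n = 3), so its group means lay closer together than the spread within WT saline. The Gabra4 share was 12.5% or more in each WT ethanol library (13.9 ± 1.24%) and at most 10.6% in each KO library. In WT saline libraries it ranged from 5.5 to 16.8% (12.1 ± 5.9%), which spans the values of the other groups.

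**Figure D2:**
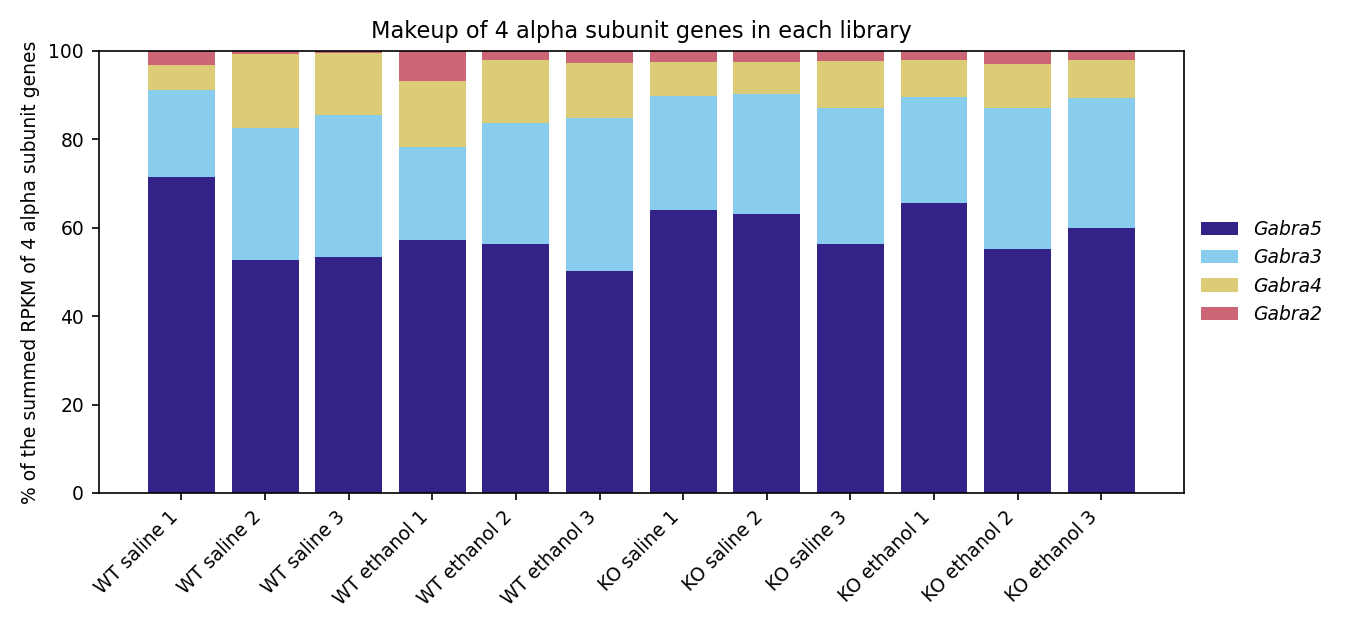
Share of each of the 4 alpha subunit genes examined in their summed RPKM (percent, axis from 0 to 100), 1 bar per library in 4 groups of 3. Gabra5 is the largest part of every bar (50.2 to 71.5%), and Gabra2 is the smallest, from 0.435% in a WT saline to 6.78% in a WT ethanol library.

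Gabra2 was scarce in 2 of the 3 WT saline libraries. It encodes the alpha2 subunit, found at synapses on the axon initial segment and linked to alcohol-related traits in human genetics. The WT saline libraries measured 9.76, 1.29 and 0.965 CPM and the WT ethanol libraries 25.6, 7.55 and 11.9. The KO saline libraries measured 11.4, 16.2 and 7.66 CPM and the KO ethanol libraries 5.01, 7.49 and 6.15. WT saline replicates 2 and 3 lay below all other libraries, whereas replicate 1 lay within the range of the other groups, so that WT saline overlapped with both WT ethanol and KO saline. These levels rest on few reads, since WT saline replicates 1, 2 and 3 held an estimated count of 19, 7 and 13, KO ethanol replicate 1 held 3 and the other 8 held 43 to 452. WT saline replicates 2 and 3 had TMM factors, which scale the library total, of 0.564 and 0.857, against 0.832 to 1.23 in the other libraries. Their most abundant transcript held 1.32 and 1.58% of the total count, against 0.384 to 1.18% elsewhere. The part of this in their Gabra2 values was not tested.

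Ethanol was accompanied by a 4.52-fold higher Gabra2 level in WT mice, a log2 fold change of 2.18 ± 0.78 (SE, adjusted p = 0.21 in edgeR). Under saline the level was 3.51-fold higher in KO than in WT mice (1.81 ± 0.77, adjusted p = 0.22 in edgeR). Both comparisons use the same 3 WT saline libraries. In KO mice the ethanol difference was −0.86 ± 0.73 (adjusted p = 1.00 in edgeR) although the KO groups did not overlap. The Genotype x Treatment interaction, the ethanol effect in KO minus that in WT mice, was −3.04 ± 1.06 (adjusted p = 0.25 in edgeR). A difference is termed called where its unadjusted p is under 0.05 in edgeR. Of the 4 differences given for Gabra2, the first 2 and the interaction were called and also passed the study's adjusted level of 0.30, and 0 passed an adjusted 0.05.

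The calls on Gabra2 depended on single libraries. Without WT ethanol replicate 1 the difference in WT mice was 1.56 (adjusted p = 0.52 in edgeR), and without WT saline replicate 2 or 3 it was 1.72 (adjusted p = 0.45) and 1.59 (adjusted p = 0.34), and none of these values was called. Without WT saline replicate 1 it was 3.70 (adjusted p = 0.021). KO saline versus WT saline was 1.38, 1.23 and 1.49 without WT saline replicate 2, WT saline replicate 3 and KO saline replicate 2, none of them called, and 3.37 without WT saline replicate 1 (adjusted p = 0.017 in edgeR). The interaction was called with each library left out and lay between −4.54 and −2.4.

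Leaving out both WT ethanol libraries with Xist gave 1.83 ± 0.95 for Gabra2 in WT mice (adjusted p = 0.98 in edgeR, not called), where the single remaining WT ethanol library was assumed to vary like the other groups, and −2.67 ± 1.19 for the interaction (adjusted p = 0.80, called). Leaving out all 4 libraries named above also left WT ethanol replicate 3 alone in its group. The Gabra2 difference was then 3.40 in WT mice, 3.38 for KO saline versus WT saline and −4.16 for the interaction. In WT ethanol versus WT saline, 3 of 5 tested thalamic, 4 of 6 striatal and 3 of 5 choroid plexus markers were also called higher. The summed thalamic markers ranged from 101 to 305 CPM in WT saline and from 143 to 1340 in WT ethanol, the striatal ones from 148 to 163 and from 116 to 937, and the choroid plexus ones from 4.11 to 120 and from 23.5 to 5010. Of these markers 0 were at 0 in every library of a group. Their part in the Gabra2 result was not tested.

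**Figure D3:**
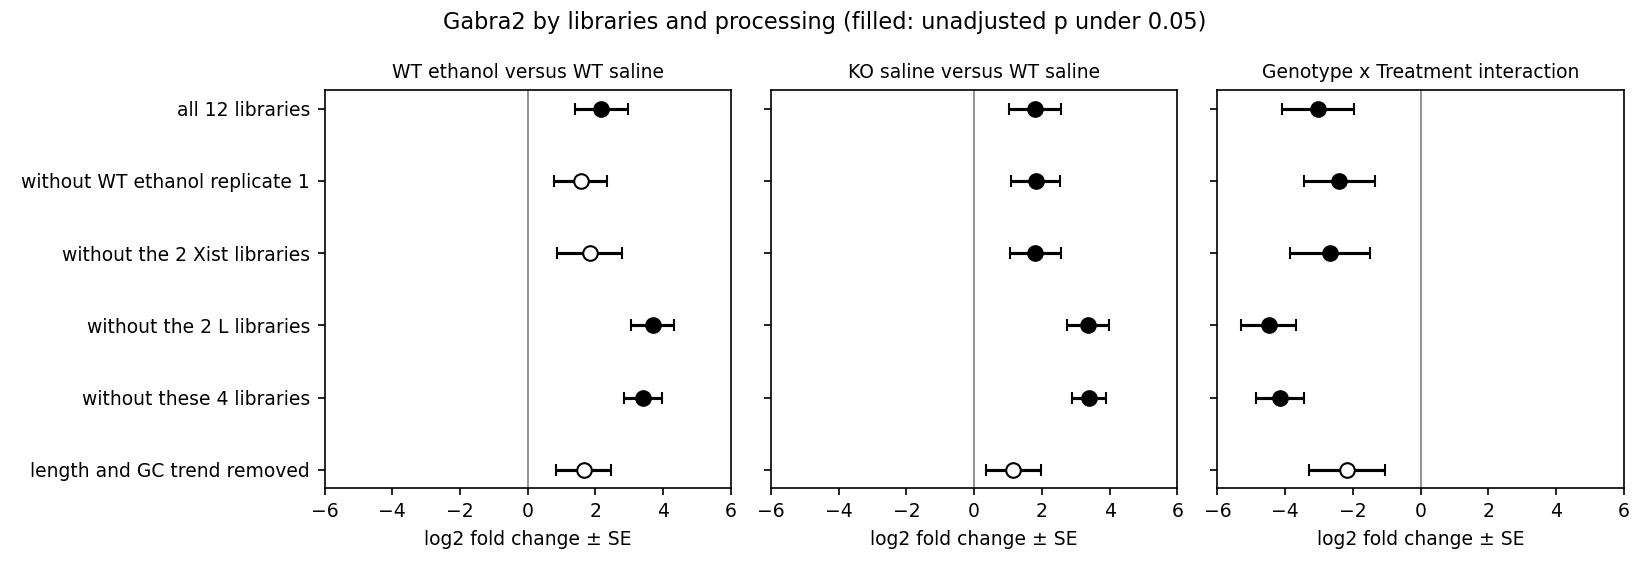
Gabra2 log2 fold change ± SE (x axis) in 3 comparisons, fitted with all 12 libraries and with libraries left out or the trend with transcript length and GC content removed; filled points have an unadjusted p under 0.05. The direction is the same in all 6 fits, and the WT ethanol difference ranges from 1.56 to 3.69.

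The counted Gabra2 model is incomplete at its 3′ end. NM_008066, on the minus strand of chromosome 5 (mm10, chr5:70961057-71095849), is 2392 bases long. It stops 3460 bases short of the 3′ end of its GENCODE transcript, the one linked to it whose ends lie closest. The 824 tested single-transcript genes whose counted model ends at least 1000 bases early had a median log2 fold change of 0.36 in WT ethanol versus WT saline, and 24.4% of them were called higher. The median was −0.02, with 8.7% higher, in 7797 genes whose model ends within 100 bases of the annotated end. The medians were 0.36 and −0.04 for KO saline versus WT saline and −0.67 and 0.0 for the interaction. Across 14530 genes with a length, Spearman's rho of the log2 fold change with transcript length was 0.48, 0.55 and −0.61 in these 3 comparisons, a description over genes that share the same libraries. With GC content it was −0.0, −0.06 and 0.24. With each library's trend with length and GC content removed, Gabra2 gave 1.65, 1.16 and −2.17 (adjusted p = 0.20, 0.34 and 0.33 in edgeR), and none of these was called. That correction moved the median of all genes to −0.62, −0.63 and 0.73. The trend was fitted to CPM without TMM, included each library's average level and was taken out on top of TMM scaling. The values under it therefore do not reflect a removed length and GC trend alone. Relative to the shifted medians Gabra2 stood further apart than these values read.

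The promoters of Gabra2 and Gabra4 are shown because p53 is a transcription factor and these are the members with a call whose start in the RefSeq promoter table (GRCm38.p6) is the start of the counted model. Each run is the 250 bases before the start, on the minus strand of chromosome 5, at chr5:71095850-71096099 for Gabra2 and chr5:71658309-71658558 for Gabra4. Capitals mark a match to the 10-base unit of the p53 response element, searched on both strands, where the palindromic unit reads alike.
Gabra2: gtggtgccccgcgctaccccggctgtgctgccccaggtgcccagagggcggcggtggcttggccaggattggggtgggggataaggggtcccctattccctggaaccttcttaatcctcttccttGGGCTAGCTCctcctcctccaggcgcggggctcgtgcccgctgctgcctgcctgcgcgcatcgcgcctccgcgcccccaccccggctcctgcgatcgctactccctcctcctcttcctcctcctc
Gabra4: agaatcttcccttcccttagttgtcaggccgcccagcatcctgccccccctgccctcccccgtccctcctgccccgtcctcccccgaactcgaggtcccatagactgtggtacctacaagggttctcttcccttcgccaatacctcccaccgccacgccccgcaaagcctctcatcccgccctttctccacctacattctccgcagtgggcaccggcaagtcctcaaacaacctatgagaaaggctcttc

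Gabra2 holds 1 such match, GGGCTAGCTC, 125 bases before the start, and Gabra4 holds 0. Of 32851 promoters of 27025 genes in the table, each 300 bases long with the 50 bases after the start included, 8.36% hold at least 1. The cAMP response element TGACGTCA (1.79% of promoters) and the TATA box TATAAA (13.6%), searched on both strands, are in neither. Over the same 300 bases the Gabra2 promoter has 25 CpG dinucleotides and a GC content of 70.0%, and that of Gabra4 has 12 and 58.7%. In all, 6 of the 7 members have a promoter in the table, and the other 4 of these hold 0 matches to the p53 unit. The upstream Gabrb1 start lies on the plus strand inside the span of the counted Gabra4 model, 388 bases from the Gabra4 start. The 5′ ends of these transcripts therefore overlap. The counted Gabrb1 model begins 41708 bases from the Gabra4 start.

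The group mean of Gabra4 was lowest in KO ethanol and highest in WT ethanol mice. It encodes the alpha4 subunit, which pairs with delta in receptors of the thalamus, dentate gyrus and cortex that respond to ambient GABA, and lies on chromosome 5 (mm10, chr5:71569734-71658308). It was measured at 29.8, 85.6 and 74.8 CPM in WT saline, 88, 85.0 and 96.3 in WT ethanol, 57.4, 79.1 and 54.8 in KO saline and 46.8, 41.4 and 38.4 in KO ethanol libraries. KO ethanol overlapped with neither WT ethanol nor KO saline. The level in KO ethanol was 2.14-fold lower than in WT ethanol mice, a log2 fold change of −1.10 ± 0.38 (called, adjusted p = 0.98 in edgeR). Ethanol minus saline was −0.61 ± 0.37 in KO mice (adjusted p = 1.00 in edgeR) and 0.49 ± 0.37 in WT mice (adjusted p = 0.47), and the interaction was −1.10 ± 0.52 (adjusted p = 0.34), with 0 of these 3 called.

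The Gabra4 difference between the ethanol groups was −0.99 without KO ethanol replicate 3 and not called (adjusted p = 1.00 in edgeR). It was −1.17 without the WT ethanol libraries with Xist and −1.25 without all 4 libraries. Both of these fits leave WT ethanol replicate 3 alone in its group, so only effect sizes are given, and they do not show that the call holds. With the length and GC trend removed the difference was −0.44 and not called. In this comparison 4 of 5 tested thalamic markers were also called lower, with sums of 109 to 125 CPM in KO ethanol and 143 to 1340 CPM in WT ethanol, and their part was not tested. Gabra4 was at 88 CPM in WT ethanol replicate 1, which carries the thalamic markers, and at 85.0 and 96.3 CPM in the other WT ethanol libraries. The one at 85.0 CPM, replicate 2, had 460 CPM of the striatal marker Ppp1r1b, against 26.2 in replicate 1. The libraries of this group thus differ in tissue markers, and the part of tissue makeup in these Gabra4 values was not tested.

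Gabra3 and Gabra5 were called in none of the comparisons of all 12 libraries in edgeR with TMM scaling. The interaction passed an unadjusted p of 0.05 in other fits of the same libraries, at −1.20 for Gabra3 without TMM, and with limma on log2(RPKM + 1) at −1.08 for Gabra3 and −1.01 for Gabra5. Gabra3, an X-linked gene (mm10, chrX:72432676-72656246) whose alpha3 subunit is abundant in immature cortex, was measured at 100, 172 and 174 CPM in WT saline, 107, 143 and 250 in WT ethanol, 152, 248 and 131 in KO saline and 152, 106 and 105 in KO ethanol libraries. The 2 WT ethanol libraries with Xist had the lower values of their group. Gabra3 gave 0.16 ± 0.4 for ethanol in WT mice (adjusted p = 0.86 in edgeR) and −0.56 ± 0.41 in KO mice (adjusted p = 1.00). KO ethanol versus WT ethanol was −0.47 ± 0.41 for Gabra3 with all 12 libraries (adjusted p = 0.98 in edgeR). It was −1.22 without all 4 libraries, where WT ethanol replicate 3, at 250 CPM, stands alone in its group.

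Gabra5, which lies on chromosome 7 (mm10, chr7:57407669-57510009), was at 225 to 263 CPM in WT saline, 181 to 261 in WT ethanol, 161 to 402 in KO saline and 123 to 339 in KO ethanol libraries. All 4 ranges overlap. Its log2 fold change lay between −0.44 and 0.12 in the 4 comparisons of groups (adjusted p between 0.83 and 1.00 in edgeR). The highest KO ethanol value, 339 CPM, was that of replicate 1, the shallowest library. Without the L libraries Gabra5 was lower after ethanol in KO mice (−1.04 ± 0.39, called, adjusted p = 0.86 in edgeR).

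**Figure D4:**
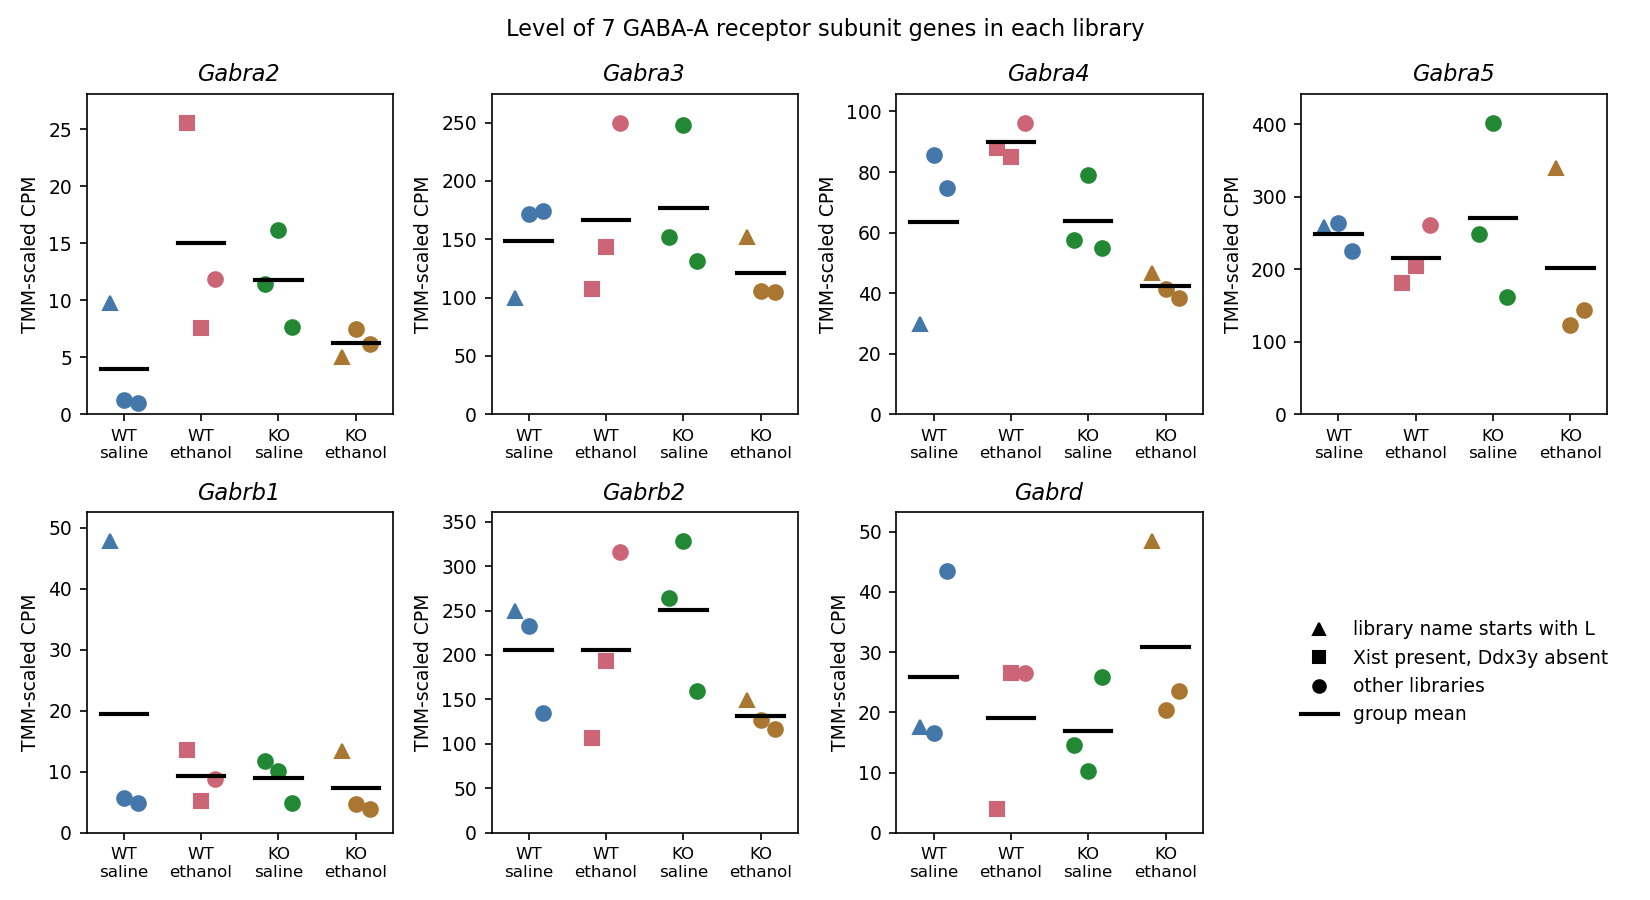
TMM-scaled CPM of the 7 genes in each of 12 libraries, 1 panel per gene with its own axis from 0; the bar is the mean of the 3 libraries of a group, triangles are the 2 libraries named with L and squares the 2 with Xist and without Ddx3y. Gabra2 is near 1 CPM in 2 WT saline libraries, Gabra4 is lowest in KO ethanol apart from 1 WT saline library, and a single triangle sets the WT saline mean of Gabrb1.

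Of the beta subunits, Gabrb2 was lower after ethanol in KO mice. The beta2 subunit is part of the most common adult receptor, and its gene lies on chromosome 11 (mm10, chr11:42419757-42632591). Gabrb2 was measured at 249, 233 and 135 CPM in WT saline, 107, 193 and 316 in WT ethanol, 264, 328 and 159 in KO saline and 149, 127 and 117 in KO ethanol libraries. The KO groups do not overlap, and the WT groups do. The level after ethanol was 1.92-fold lower than after saline in these mice, with a log2 fold change of −0.94 ± 0.43 (called, adjusted p = 1.00 in edgeR), and the difference in WT mice was 0.0 ± 0.43. The interaction was −0.94 ± 0.61 with all libraries (adjusted p = 0.48 in edgeR, not called). It was −1.53 without those with Xist and −1.77 without all 4, where WT ethanol replicate 3, at 316 CPM, stands alone in its group. The Gabrb2 call did not hold when WT ethanol replicate 2, KO saline replicate 1 or 2, or any one of the KO ethanol libraries was left out (−1.04 to −0.70), and the value was −0.01 with the length and GC trend removed. The counted Gabrb2 model, 7552 bases long, is the longest of the 7.

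Gabrb1 was set by a single library in WT saline. It was measured at 47.8, 5.69 and 4.9 CPM in WT saline, 13.6, 5.27 and 8.89 in WT ethanol, 11.7, 10.2 and 4.86 in KO saline and 13.4, 4.65 and 3.87 in KO ethanol libraries. The highest value of WT saline and of KO ethanol came from the L library. Ethanol versus saline in WT mice was −1.0 ± 0.78 for Gabrb1 (adjusted p = 0.49 in edgeR) with all libraries and 0.73 ± 0.5 (adjusted p = 0.30) without the L libraries. Its interaction turned from 0.42 ± 1.14 (adjusted p = 0.90 in edgeR) to −1.82 ± 0.71 (called, adjusted p = 0.18) in the same way. The counted model, NM_008069 (mm10, chr5:71700016-72137244, plus strand), is 1860 bases long and stops 11793 bases short of the annotated 3′ end.

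Gabrd was called in none of the comparisons. It encodes the delta subunit of extrasynaptic receptors, a site of neurosteroid action, and lies on chromosome 4 (mm10, chr4:155384979-155398069). Gabrd was measured at 17.5, 16.5 and 43.5 CPM in WT saline, 3.96, 26.5 and 26.5 in WT ethanol, 14.6, 10.2 and 25.9 in KO saline and 48.4, 20.4 and 23.5 in KO ethanol libraries. The extremes were WT ethanol replicate 1 and KO ethanol replicate 1, both among the libraries that stand apart. The ethanol difference of Gabrd was −0.47 ± 0.64 in WT mice (adjusted p = 0.71 in edgeR) and 0.80 ± 0.65 in KO mice (adjusted p = 1.00), and without WT ethanol replicate 1 the former was 0.0 ± 0.57.

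In WT ethanol versus WT saline, 1 of the 7 members was called higher and 0 lower, where 9.99% of the 14739 genes tested were called higher and 8.36% lower. At the study's adjusted level of 0.30 it was 1 of 7 (22.5% of all genes), and 0 of 7 had groups that did not overlap (19.6% of all genes). In KO ethanol versus KO saline, 0 members were higher (1.15% of all genes) and 1 was lower (2.01%), while 3, Gabra2, Gabra4 and Gabrb2, had groups that did not overlap (10.8%). The member median was −0.58 there, against 0.01 over all genes, and 6 of the 7 members had a value below 0. Over all genes with a length, Spearman's rho of the log2 fold change was −0.47 with transcript length and 0.49 with GC content. Gabrd, the member above 0, has 56.4% GC in its counted model, and the others have 41.7 to 47.1%. The part of these trends was not tested. Without the L libraries 3 members were lower (Gabra4, Gabra5 and Gabrb2, each with an adjusted p of 0.86 in edgeR), where 2.92% of all genes were. Without all 4 libraries 4 were lower (Gabra4, Gabra5, Gabrb1 and Gabrb2, each with an adjusted p of 0.81 in edgeR), where 2.66% of all genes were.

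In KO saline versus WT saline, 1 member was higher (9.14% of all genes) and 0 were lower (10.5%), 1 passed the adjusted 0.30 (25.8%), and 0 had groups that did not overlap (22.9%). In KO ethanol versus WT ethanol, 0 were higher (0.977%) and 1 was lower (2.26%), and 2, Gabra2 and Gabra4, had groups that did not overlap (12.7%). The member median was −0.65 in that comparison, against −0.03 over all genes. Spearman's rho over all genes with a length was −0.33 with transcript length and 0.39 with GC content, and the part of these trends was not tested. For the interaction, 0 members were higher (7.5%) and 1 was lower (7.67%), and 1 passed the adjusted 0.30 (11.1%). The main effect of Treatment was called for 0 members (7.1% of all genes) and that of Genotype for 0 members (7.67%). Each of these calls is a single gene of the 7, against a background of 7.67 to 9.99% in the comparisons with WT saline and the interaction and of 2.01 and 2.26% in those of KO ethanol. In none of the 7 comparisons did a member pass an adjusted p of 0.05, which 11, 0, 8 and 0 genes passed in the 4 comparisons of groups in edgeR and 488, 2, 717 and 3 in DESeq2. In such bulk tissue, fewer cells of a type and less RNA per cell cannot be told apart.

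**Figure D5:**
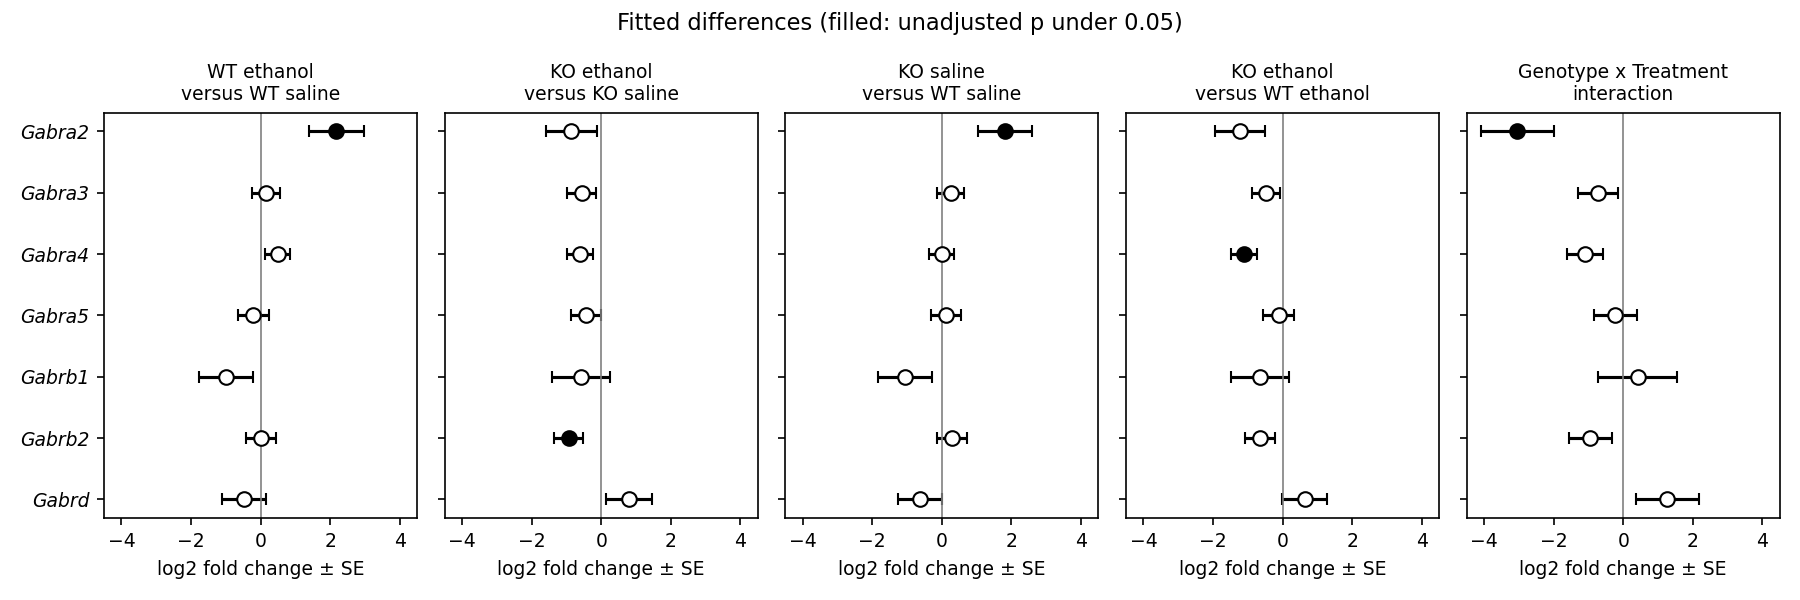
Fitted log2 fold change ± SE (x axis) of the 7 genes in 4 comparisons of groups and in the Genotype x Treatment interaction; filled points have an unadjusted p under 0.05 in edgeR. Gabra2 is filled in 3 panels, at 2.18, 1.81 and −3.04, and Gabrb2 and Gabra4 in 1 panel each.

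Of 9 other GABA-A and rho subunits, 3 passed the low-count filter. Gabrg1, encoding gamma1, was not called in WT ethanol versus WT saline (0.53 ± 0.63). The other 2 were called higher, where 9.99% of all genes were, and are scarce. Gabrg3, encoding gamma3, was at 2.57, 0.918 and 1.26 CPM in WT saline and 6.96, 2.81 and 2.78 in WT ethanol libraries, a log2 fold change of 1.54 ± 0.65 (adjusted p = 0.24 in edgeR). Gabrq, the X-linked theta subunit gene, was at 1.03, 1.29 and 1.71 CPM in WT saline and 5.49, 2.63 and 6.76 in WT ethanol libraries, a log2 fold change of 1.82 ± 0.59 (adjusted p = 0.20 in edgeR). Neither pair of groups overlaps, which holds for 19.6% of all genes, and the nearest Gabrg3 values of the 2 groups were 2.57 and 2.78 CPM.

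In KO mice the ethanol difference was −1.39 ± 0.68 for Gabrg3 and −0.47 ± 0.59 for Gabrq (adjusted p = 1.00 for each in edgeR). Their interactions, both called, were −2.93 ± 0.94 (adjusted p = 0.25 in edgeR) and −2.29 ± 0.83 (adjusted p = 0.26), where 7.67% of all genes were called lower. Under saline Gabrq was called higher in KO mice (1.26 ± 0.58, adjusted p = 0.25 in edgeR), as were 9.14% of all genes. Gabrg1 and Gabrg3 were lower in KO ethanol than in WT ethanol mice, with log2 fold changes of −1.50 ± 0.66 and −1.89 ± 0.68 (adjusted p = 0.98 for each in edgeR). In that comparison 2.26% of all genes were called lower. A main effect of Treatment was called for 0 of the 3 (7.1% of all genes). Without the libraries with Xist, Gabrg3 gave 0.92 (not called) and Gabrq 2.22 (called, adjusted p = 0.98 in edgeR) in WT ethanol versus WT saline.

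The remaining 6 subunits were near the limit of detection. Gabrp had a count of 0 in every library, and Gabra6, Gabrr2 and Gabrr3 had at most 9 reads in any. Gabre and Gabrr1 reached 34 and 32 reads in WT ethanol replicate 1 and at most 1 and 7 reads in the other 11 libraries.

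Genes that place the receptor at synapses showed calls in both directions. Of 19 anchoring and trafficking genes, all tested, 3 were called higher and 1 lower in WT ethanol versus WT saline (9.99% and 8.36% of all genes), with a list median of 0.46 against 0.06 over all genes. Hap1, which carries GABA-A receptors along microtubules, was at 21.6, 12.7 and 21.5 CPM in WT saline and 488, 57.0 and 137 in WT ethanol libraries. Its value in WT ethanol replicate 1 was the highest of all 12, and the log2 fold change was 3.62 ± 0.74 (adjusted p = 0.086 in edgeR). The one called lower was Gabarap, which binds GABA-A receptors and takes part in autophagy. It was at 338, 2050 and 734 CPM in WT saline and 187, 239 and 333 in WT ethanol libraries, a log2 fold change of −2.04 ± 0.64 (adjusted p = 0.19 in edgeR). Gabarap was also lower in KO saline (224, 318 and 200 CPM) than in WT saline libraries, with a log2 fold change of −2.07 ± 0.64 (called, adjusted p = 0.18 in edgeR), and both comparisons share the WT saline libraries. On the deposited RPKM scale its WT saline values were 270, 465 and 413 and its WT ethanol values 234, 233 and 267, a smaller difference, and the groups do not overlap on either scale. Slitrk3, an adhesion protein of inhibitory synapses, was higher in KO saline (34.0, 33.1 and 32.0 CPM) than in WT saline libraries (5.14, 10.6 and 17.1 CPM), by 1.54 ± 0.41 (adjusted p = 0.16 in edgeR). In KO ethanol versus KO saline, 0 of the 19 were called in either direction, where 3.15% of all genes were. Without the libraries with Xist, 1 was higher and 0 were lower in WT ethanol versus WT saline (3.01% and 1.05% of all genes), and without all 4 libraries 4 were higher and 2 lower (10.7% and 8.47% of all genes in that fit).

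Of 10 genes of GABA synthesis, transport and chloride gradients, 3 were called higher and 0 lower in WT ethanol versus WT saline, against 9.99% and 8.36% of all genes. Gad2 encodes one of the enzymes that make GABA from glutamate. It was at 60.1, 24.2 and 21.2 CPM in WT saline, 104, 104 and 115 in WT ethanol, 67.9, 58.2 and 51.7 in KO saline and 53.5, 50.6 and 81.6 in KO ethanol libraries. Each WT ethanol library lay above all others, by a log2 fold change of 1.64 ± 0.4 over WT saline (adjusted p = 0.13 in edgeR). Gad1, the other such enzyme, differed by 0.92 ± 0.31 (called, adjusted p = 0.21 in edgeR) and Abat, which degrades GABA, by 1.23 ± 0.35 (called, adjusted p = 0.18). The summed level of 10 cortical interneuron markers was 380 to 643 CPM in WT saline and 652 to 1190 in WT ethanol libraries, with 1 of the 10 called higher, and its part in these differences was not tested. Without the libraries with Xist 1 of the 10 genes was higher (3.01% of all genes), and without all 4 libraries 1 was higher and 1 lower (10.7% and 8.47%).

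GABA-B receptors are the metabotropic counterpart of the GABA-A channels. Of 5 genes in this list, 1 was called higher in WT ethanol and 1 in KO saline, each compared with WT saline (9.99% and 9.14% of all genes), and both times it was Gabbr2, an obligatory subunit of the receptor. Gabbr2 was measured at 19.0, 5.32 and 14.7 CPM in WT saline, 203, 68.5 and 107 in WT ethanol, 148, 94.1 and 94.4 in KO saline and 71.8, 88.1 and 98.6 in KO ethanol libraries. The 3 WT saline libraries lay below all other 9. Gabbr2 gave 3.30 ± 0.51 for ethanol in WT mice (edgeR adjusted p = 0.033), 3.13 ± 0.51 for KO saline against WT saline (adjusted p = 0.047) and −0.37 ± 0.46 for ethanol in KO mice (adjusted p = 1.00). Its interaction was −3.67 ± 0.68 (called, adjusted p = 0.16 in edgeR). The first 2 comparisons share the WT saline libraries. Gabbr1, its partner, gave −0.43 ± 0.41 for ethanol in WT mice (adjusted p = 0.58 in edgeR) and −0.68 ± 0.41 for KO saline against WT saline (adjusted p = 0.36). Kctd8, an auxiliary subunit, was lower in KO ethanol than in WT ethanol mice, with a log2 fold change of −1.34 ± 0.47 (called, adjusted p = 0.98 in edgeR). Without WT ethanol replicate 1, 1 of the 5 genes was called higher in WT ethanol versus WT saline (5.86% of all genes). In that fit 0 of the 5 passed an adjusted 0.05 in this comparison, and 1 did in KO saline versus WT saline. The list median in WT ethanol versus WT saline was 0.2 with all libraries. It was 0.09 without the libraries with Xist and −0.18 without all 4, where WT ethanol replicate 3 stands alone in its group.

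Across the 12 libraries the members did not follow one pattern. Pearson's r of log2 CPM was 0.67 to 0.69 between Gabra3 and each of Gabra4, Gabra5 and Gabrb2, and 0.69 between Gabra5 and Gabrb2. It was −0.63 between Gabra2 and Gabrd and between −0.31 and 0.49 in the other pairs apart from these. The mean of the 7 standardized log2 levels was highest in WT ethanol replicate 3 (0.84) and KO saline replicate 2 (0.82) and lowest in KO ethanol replicates 3 (−0.80) and 2 (−0.77). The genes reported here as most like that mean, of 10051 with a mean of at least 10 CPM, were Cpsf2 (r = 0.951), Rabep1 (0.925), Jazf1 (0.908), Schip1 (0.906) and Zfp729b (0.906). These correlations describe 12 libraries that also differ in depth, genotype and treatment, and no test was made of them.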

How the data were processed

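The authors filtered reads on base quality, mapped them to mm10 (GRCm38) with Bowtie2 within TopHat, quantified RefSeq transcripts in Partek Flow and deposited an estimated count and an RPKM for each transcript. TopHat and Partek Flow versions are not given in the sources used here. Transcripts were summed per symbol, and sums of estimated counts were rounded. Groups came from the sample labels, and replicates were numbered in accession order. The 4 group means were fitted in edgeR 4.0.16 (R 4.3.3; filterByExpr, TMM, two-sided quasi-likelihood test), p-values were adjusted over the 14739 symbols tested (Benjamini-Hochberg), and CPM was computed from the TMM-scaled totals. The study fitted its factors to RPKM. Here limma 3.58.1 on log2(RPKM + 1) and DESeq2 1.42.0 were alternatives. The fit was tested on simulated data. The genes named are the 7 members, the other subunits, of each further list the 3 with the smallest p in WT ethanol versus WT saline, in KO saline versus WT saline or in the interaction, and the 5 most like the members' mean. Some genes that these rules name are not reported here, and counts of the lists leave them out. Members and lists were chosen with earlier results of these data known. The alternatives without the libraries with Xist, and without 4 libraries, were added after seeing the data. Both leave WT ethanol replicate 3 alone in its group, so that the spread in their tests comes from the other groups.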

Additional observations from a re-analysis of the deposited data

Results flagged for a closer look

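For 9 of the genes named, the ethanol effect in KO mice differed from that in WT mice by the interaction term at an unadjusted p under 0.05 in edgeR. Of all 14739 genes tested, 15.2% passed the same level. No adjusted interaction p was below 0.16. The subunit genes were Gabra2, Gabrg3 and Gabrq. Gabra2 gave 2.18 ± 0.78 (log2 fold change ± SE) in WT and −0.86 ± 0.73 in KO mice, an interaction of −3.04 (adjusted p = 0.25 in edgeR). Gabrg3 gave 1.54 ± 0.65 and −1.39 ± 0.68, an interaction of −2.93 (adjusted p = 0.25 in edgeR). Gabrq gave 1.82 ± 0.59 and −0.47 ± 0.59, an interaction of −2.29 (adjusted p = 0.26 in edgeR). The other genes were Gabbr2, Hap1, Gabarap, Gad2, Abat and Gad1. Their values in WT mice were 3.30, 3.62, −2.04, 1.64, 1.23 and 0.92. In KO mice they were −0.37, 0.80, 0.36, 0.07, 0.0 and −0.23. The interactions were −3.67, −2.82, 2.39, −1.57, −1.23 and −1.15, with adjusted p = 0.16, 0.25, 0.26, 0.26, 0.28 and 0.27 in edgeR. These 6 genes were named for a small p in the interaction or in the comparisons with WT saline, so their number passing follows in part from that choice. It cannot be set against the share of all genes.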

How the results depend on the processing

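Over 858 combinations of member, comparison and alternative setting, 752 kept the direction and the side of the threshold, 23 lost a call at an unadjusted p under 0.05, 35 gained one and 48 turned in direction. Gabra2 rests on few reads in 4 libraries, 7 to 19 in WT saline and 3 in KO ethanol replicate 1. Library size without TMM moved the median of all genes to 0.49 in WT ethanol versus WT saline (2673 genes higher and 318 lower at p under 0.05, against 1472 and 1232 with TMM) and to 0.49 in KO saline versus WT saline (2527 and 472, against 1347 and 1543). Removal of the length and GC trend moved the medians to −0.62 (425 and 3447) and −0.63 (332 and 3506), so turned values under it are to be read relative to these medians. That trend included each library's average level without TMM and was taken out on top of TMM scaling. Lost calls and turned values under it therefore do not reflect length and GC content alone. The cause of the changes below was not tested, except that the minimum of 10 counts in every library drops Gabra2 and Gabrb1. No paired analysis was possible because the replicate numbers follow accession order.

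Counts of members called are given here with the percentage of all genes called in the same fit, in either direction. In WT ethanol versus WT saline the number was 1 (18.3%), but 2 without TMM (20.3%) and with limma on log2(RPKM + 1) (11.7%) and log2(RPKM + 0.1) (11.1%), and 0 with the minimum of 10 counts (20.0%), with the length and GC trend removed (26.3%) and without the libraries with Xist (4.06%). In KO ethanol versus KO saline it was 1 (3.15%), but 0 in DESeq2 (3.96%), with single transcripts (2.99%) and with the length and GC trend removed (1.05%), 2 with the library letter as covariate (1.55%), 3 without the L libraries (4.03%) and 4 without all 4 libraries (4.48%). In KO saline versus WT saline it was 1 (19.6%), but 0 with the minimum of 10 counts (23.4%), with the groups compared alone (16.9%) and with the length and GC trend removed (26.0%), and 2 with limma on log2(RPKM + 0.1) (11.5%). In KO ethanol versus WT ethanol it was 1 (3.24%), but 3 with the letter as covariate (2.19%), without the L libraries (6.35%) and without all 4 (10.5%), 2 with the groups compared alone (4.72%) and 0 with the length and GC trend removed (2.15%). For the interaction it was 1 (15.2%), but 4 without TMM (15.5%, with a median of −0.52 over all genes) and with limma at either pseudocount (11.5% and 11.2%), 2 with the letter as covariate (10.3%), without the L libraries (21.4%) and without the libraries with Xist (5.38%), 3 without all 4 (13.1%) and 0 with the length and GC trend removed (15.5%). For the Treatment and Genotype main effects it was 0 (7.1% and 7.67%), but 2 and 2 without the L libraries (30.6% and 34.2%) and 1 and 3 without all 4 (16.4% and 34.3%). With each library left out in turn, the number ranged from 0 to 1 in the first 3 of these comparisons and for Treatment, from 0 to 2 in KO ethanol versus WT ethanol and for Genotype, and from 1 to 2 for the interaction.

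Over all genes, an adjusted p under 0.05 was reached in WT ethanol versus WT saline by 11 genes, against 488 in DESeq2, 3220 without the L libraries, 26 without all 4, and 0 without WT ethanol replicate 1, without the libraries with Xist and with the groups compared alone. In KO saline versus WT saline it was reached by 8, against 717, 3782 and 3992 in DESeq2, without the L libraries and without all 4, and 0 with the groups compared alone. The adjusted 0.30 was passed by 3310 genes in WT ethanol versus WT saline, but by 71 without WT ethanol replicate 1, 39 with the groups compared alone and 356 with limma on log2(RPKM + 1).

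Gabra3 turned to −0.13 (without the L libraries) and −0.61 (length and GC trend removed) in WT ethanol versus WT saline and to −0.03 and −0.63 in KO saline versus WT saline. With the trend removed it turned to 0.27 in KO ethanol versus KO saline, 0.24 in KO ethanol versus WT ethanol and 0.87 for the interaction. Gabra4 with the trend removed turned to −0.35 in WT ethanol versus WT saline, 0.14 in KO ethanol versus KO saline and 0.49 for the interaction. Gabra5 in WT ethanol versus WT saline turned to 0.22 without TMM, 0.33 and 0.33 with limma at either pseudocount, 0.01 with the letter as covariate, 0.05 without the libraries with Xist and 0.06 without all 4. With the trend removed, Gabra5 turned to 0.19 in KO ethanol versus KO saline, −0.54 in KO saline versus WT saline, 0.50 in KO ethanol versus WT ethanol and 1.04 for the interaction. Gabrb1 turned with the letter as covariate, without the L libraries and without all 4, to 0.58, 0.73 and 0.71 in WT ethanol versus WT saline, to 0.51, 0.69 and 0.72 in KO saline versus WT saline and to −1.85, −1.82 and −1.76 for the interaction. Gabrb2 with the trend removed turned to −0.94 in KO saline versus WT saline, 0.08 in KO ethanol versus WT ethanol and 1.02 for the interaction, and Gabrd turned to −0.24 in KO ethanol versus WT ethanol without all 4.

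Single libraries left out also turned some members. Gabra3 ranged from −0.26 to 0.38 in WT ethanol versus WT saline and from −0.08 to 0.39 in KO saline versus WT saline, and Gabra5 from −0.28 to 0.36 in KO saline versus WT saline, from −0.70 to 0.20 in KO ethanol versus WT ethanol and from −0.82 to 0.16 for the interaction. Gabrb1 ranged from −1.48 to 0.76, from −1.55 to 0.71 and, for the interaction, from −1.34 to 0.89, its positive values in the saline comparisons arising without WT saline replicate 1. Gabrd ranged from −0.83 to 0.16 in WT ethanol versus WT saline.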
